A study of Mus musculus with 12 samples.

Results

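The data compare regulatory T cells (Treg) of 2 kinds sorted from the mouse thymus: Treg that carry no tdTomato label, called bulk Treg, and newly generated Treg that carry tdTomato and stain for CD73 on the surface, called CD73+ new Treg. The groups were taken from the sample labels, and each has 3 libraries, so 6 of the 12 libraries of the series enter the comparison directly. All mice were C57BL/6. They were given tamoxifen in olive oil at 10 μg/g into the peritoneal cavity, and thymocytes were sorted on day 7 by CD4, tdTomato, green fluorescent protein (GFP) and CD73. Bulk Treg were CD4+, GFP+ and tdTomato–, and were not divided by CD73. CD73+ new Treg were positive for CD4, tdTomato, GFP and CD73. The other 2 groups, used for context and for the common estimate of the spread, were CD73– new Treg (as the CD73+ cells but CD73–) and new conventional T cells (CD4+, tdTomato+, GFP– and CD73–). The tamoxifen-inducible Cre driver and the GFP allele are not given in the sources used here. Absence of tdTomato does not date a cell, and the labels give no age for the bulk Treg. The question is whether CD73 marks new Treg whose transcripts match those of the unlabelled Treg.

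Treg hold back immune responses and depend on the transcription factor Foxp3. Most arise in the thymus from CD4+ thymocytes that receive strong T cell receptor (TCR) and interleukin-2 signals, and mature Treg from the periphery can return to the thymus and stay there. CD73, the product of Nt5e, is a surface enzyme that makes adenosine from AMP, downstream of CD39 (Entpd1), which breaks down ATP and ADP.

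The groups come from 2 deposited tables that were filtered and scaled separately, CD73+ and CD73– new Treg in the first and bulk Treg and conventional T cells in the second. Of 13207 genes listed, 12410 had values in all 12 columns and were quantile-normalised together, and 11139 of these passed a filter on low values. The table of origin and the group cannot be told apart beyond what this normalisation removes. Levels are log2 CPM, the log of counts scaled to a common library size, on the joint scale, and differences are log2 fold changes, bulk Treg minus CD73+ new Treg. The effective depth of the 6 libraries was 13600000 to 16300000 counts, and 3 counts correspond to a deposited log2 CPM between −2.22 and −1.96. Nothing in the labels ties the libraries to separate animals. The p-values, standard errors and intervals reflect only how far the 12 libraries of the fit vary within their 4 groups, part of which may be technical. They can thus be wider or narrower than the 6 values printed for a gene would give. In these sorted populations, fewer cells of a type and less RNA per cell cannot be told apart. The transcript of Lars2, a mitochondrial leucyl-tRNA synthetase, took 28.5% of the deposited CPM at the least and 32.4% at the most in the 6 libraries, and the normalisation sets its level equal in all of them.

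The genes behind the sort came first. Foxp3 stood at 9.21, 9.29 and 9.10 in the CD73+ libraries (replicates A, B and D, in this order throughout) and at 9.11, 9.19 and 9.04 in the bulk libraries. The groups overlapped, the difference was −0.09 ± 0.24 (SE) with a 95% interval from −0.60 to 0.42, and limma's adjusted p was 0.839. This SE takes its spread from all 12 libraries and not from these 6 alone. Cd4, the coreceptor, was 8.45, 8.36 and 8.43 in CD73+ and 8.45, 8.50 and 8.45 in bulk libraries, a difference of 0.05 with an interval from −0.05 to 0.15. The other Treg-defining transcripts were abundant in both groups: Il2ra, the interleukin-2 receptor α chain, was 9.56 to 9.85 in CD73+ and 9.77 to 9.92 in bulk libraries (adjusted p = 0.19, and 0.0492 without CD73+ replicate B), and Ikzf2, which encodes Helios, was 10.72 to 10.97 and 10.87 to 10.89.

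Nt5e (gene on chromosome 9, 88327197 to 88372092, mm10) was 7.20, 7.47 and 7.21 in the CD73+ libraries and 8.23, 8.24 and 8.23 in the bulk libraries. Every bulk library lay above every CD73+ library, although only the CD73+ cells had been sorted for the protein. The difference was 0.94 ± 0.09 (adjusted p = 1.85e-06, limma). In the CD73– new Treg it was 5.54, 5.72 and 5.39, below both.

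Ahnak, which encodes a giant scaffold protein under the plasma membrane, was 8.95, 8.94 and 8.89 in CD73+ and 10.97, 10.97 and 11.12 in bulk libraries. The groups were far apart relative to their spread, with a difference of 2.10 ± 0.07 (adjusted p = 2.45e-12). The gene lies on chromosome 19 from 8989284 to 9076914, on the plus strand of GRCm38 (mm10). The 250 bases before its RefSeq start, on GRCm38.p6 at chr19:8989034-8989283, are shown because Ahnak was also higher in CD73+ than in CD73– new Treg (7.98, 7.76 and 7.92). They hold neither motif searched for further on.
Ahnak: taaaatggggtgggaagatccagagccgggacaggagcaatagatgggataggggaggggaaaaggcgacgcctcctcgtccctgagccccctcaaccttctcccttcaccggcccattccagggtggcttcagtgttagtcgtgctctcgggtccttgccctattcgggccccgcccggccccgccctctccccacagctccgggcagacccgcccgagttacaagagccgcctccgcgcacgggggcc
Ccr8, a chemokine receptor of activated Treg, followed the same order, at 4.35, 4.37 and 4.38 in CD73+ and 5.10, 5.10 and 4.88 in bulk libraries (0.66 ± 0.10, adjusted p = 0.000102). Nkg7, which encodes a cytotoxic granule protein, was the exception among the 4 marker genes. It was 3.11, 3.07 and 2.83 in CD73+ and 3.16, 2.92 and 2.91 in bulk libraries. These groups overlapped, and the interval of the difference, −0.53 to 0.52, lay within 1.5-fold in either direction. In CD73– new Treg Nkg7 was 1.29, 1.97 and 1.07, and CD73+ new Treg exceeded them by 1.56 (adjusted p = 0.0033).

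**Figure D1:**
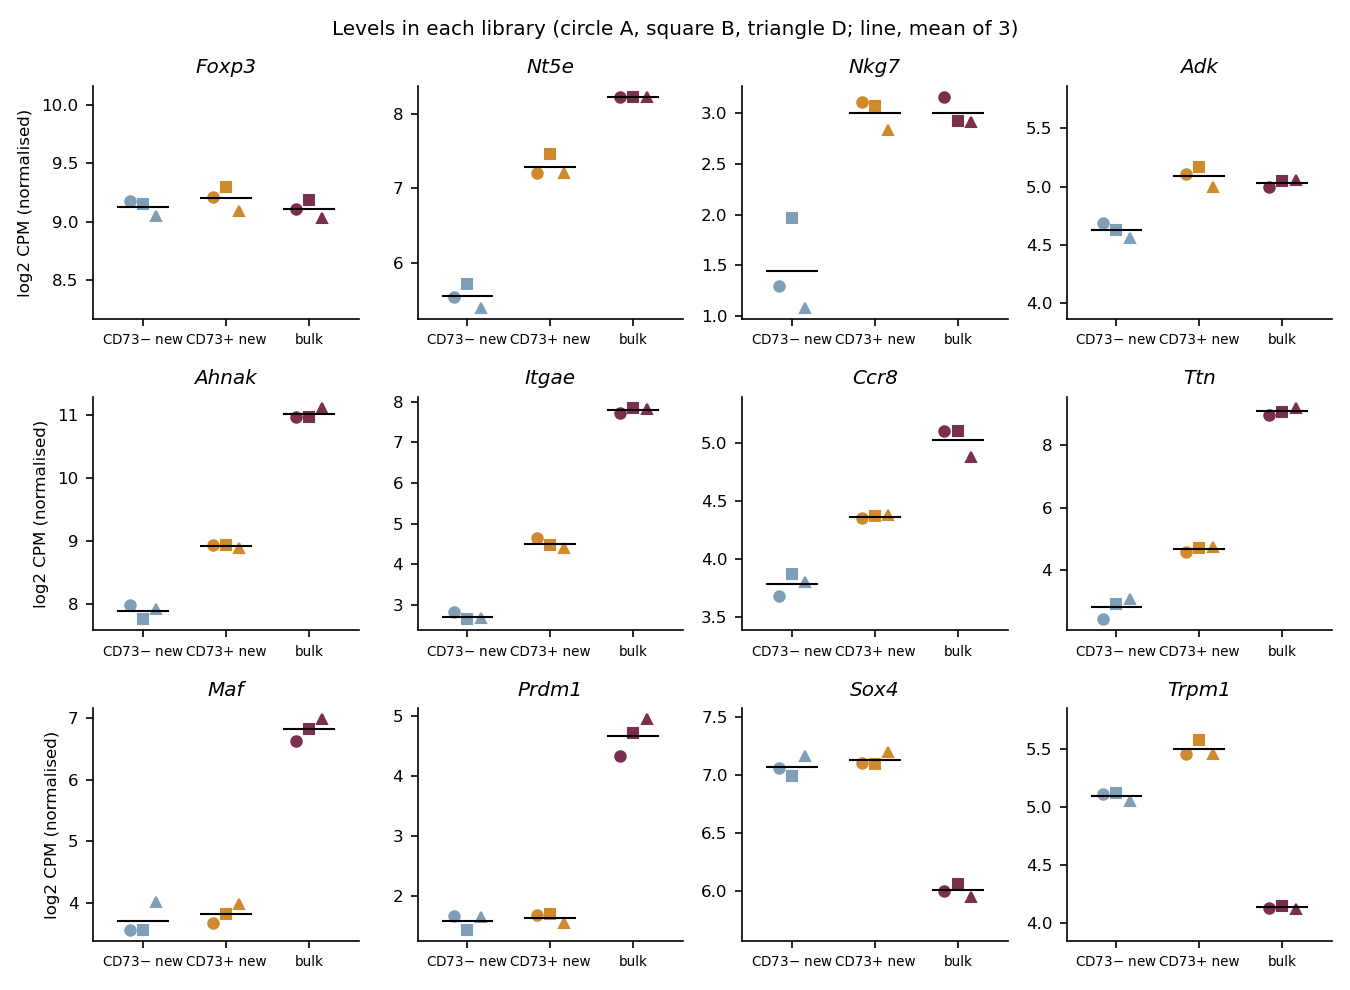
Normalised log2 CPM (vertical axis) of 12 genes in CD73– new, CD73+ new and bulk Treg, 1 point per library (circle A, square B, triangle D) with a line at the group mean of 3 libraries. Foxp3 is level across the groups, Nkg7 and Adk are level between CD73+ new and bulk Treg, and Nt5e, Ahnak, Itgae, Ccr8 and Ttn are highest in bulk Treg.

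Of 11139 genes tested, 2278 (20.5%) passed an adjusted p of 0.05 by limma. Of these, 1070 (9.61% of those tested) were higher in bulk Treg and 1208 (10.8%) were lower. The split depends on the scale: of the genes called, 47.0% were higher on the quantile scale, 53.8% after a trimmed mean shift (1147 against 983) and 60.2% on the deposited values left as they are (1264 against 834). Over 2-fold, 363 genes (3.26%) were higher and 151 (1.36%) were lower, and the lower count was 53 on the deposited values. For 7474 genes (67.1%) the 95% interval lay within 1.5-fold. In 4366 genes (39.2%) the 2 groups of libraries did not overlap. The median difference over all genes was −0.05.

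**Figure D2:**
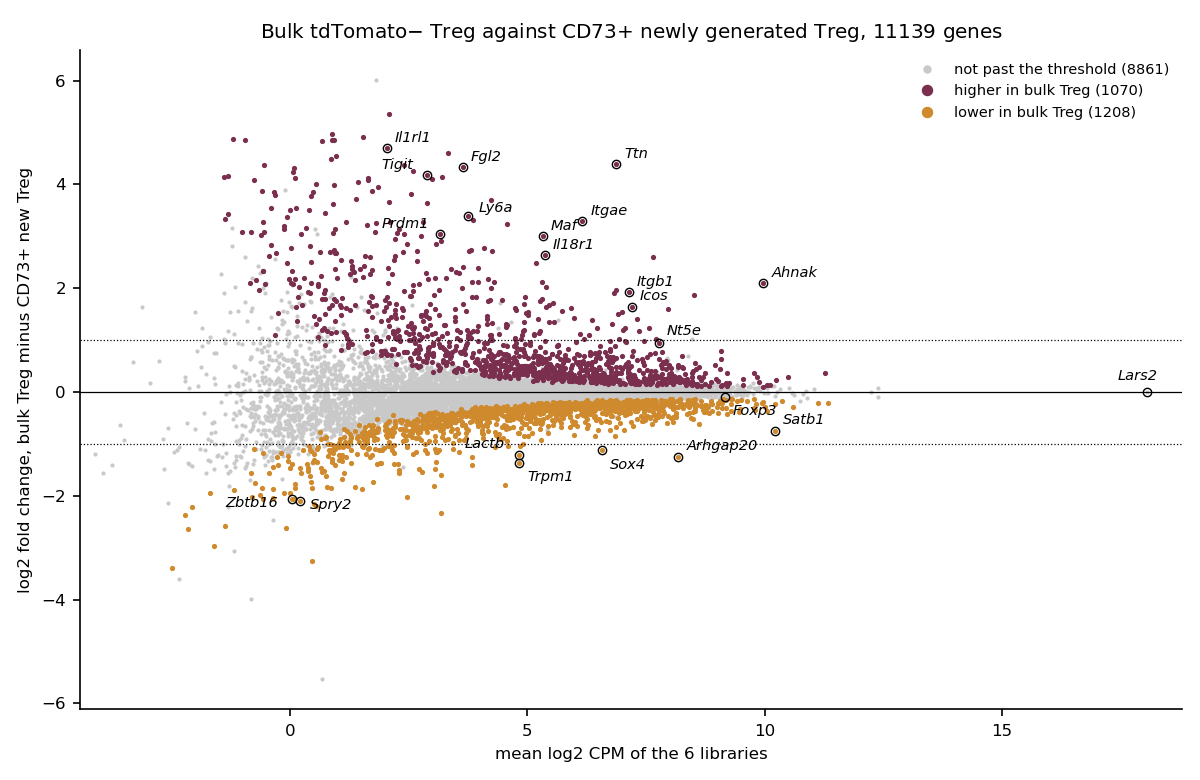
Log2 fold change, bulk Treg minus CD73+ new Treg (vertical axis), against mean normalised log2 CPM of the 6 libraries (horizontal axis) for 11139 genes, with dotted lines at 2-fold. The 1070 genes past the threshold above 0 extend further from 0 than the 1208 below it.

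Library by library, the root mean square log2 difference over all tested genes was 0.328 to 0.350 between bulk libraries and 0.388 to 0.476 between CD73+ libraries. Between a bulk and a CD73+ library it was 0.644 to 0.700 over the 9 pairs, above every distance within either group. Between a bulk and a CD73– library it was 0.793 to 0.855, and between a CD73+ and a CD73– library 0.471 to 0.612. Within the CD73– group it was 0.509 to 0.531, so the distances from CD73+ to CD73– libraries overlapped those within a group. By this description, in which pairs share libraries, bulk Treg lay nearer to CD73+ than to CD73– new Treg. On this scale the CD73+ libraries lay nearer to the CD73– libraries, of the same deposited table, than to the bulk libraries. With a median shift those ranges overlapped, at 0.458 to 0.649 for CD73– and 0.629 to 0.716 for bulk libraries.

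**Figure D3:**
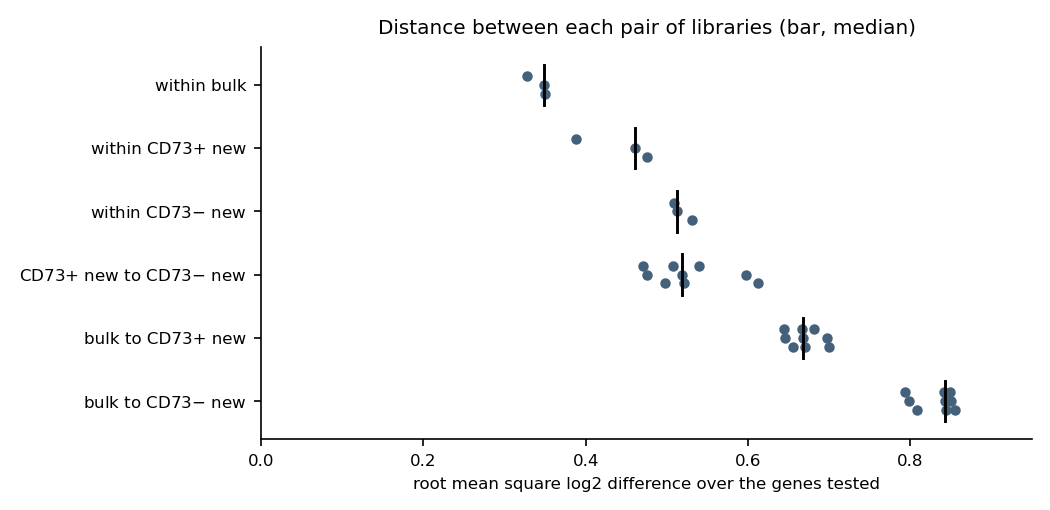
Root mean square log2 difference (horizontal axis) for pairs of libraries, grouped by the groups the pair joins (rows), 1 point per pair. Pairs of a bulk and a CD73+ library sit at 0.644 to 0.700, between the pairs within a group and the pairs of a bulk and a CD73– library.

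The 8 genes with the largest excess in bulk Treg, among called, non-overlapping genes of above-median level, began with Ttn, which encodes the muscle protein titin. It was 4.57, 4.73 and 4.75 in CD73+ and 8.95, 9.06 and 9.19 in bulk libraries, a difference of 4.39 ± 0.18 (adjusted p = 4.9e-11), and 2.44, 2.93 and 3.09 in CD73– new Treg. Itgae, the αE integrin CD103 that binds E-cadherin on epithelium, was 4.64, 4.49 and 4.41 in CD73+ and 7.73, 7.86 and 7.82 in bulk libraries (3.29 ± 0.10, adjusted p = 2.45e-12). Both genes thus rose from CD73– (Itgae 2.83, 2.65 and 2.68) to CD73+ to bulk Treg. The CD73– and CD73+ libraries did not overlap. Non-overlap of CD73+ and bulk libraries was a condition of the selection. Maf, a transcription factor of effector T cells, was 3.67, 3.82 and 3.97 in CD73+ and 6.63, 6.83 and 6.99 in bulk libraries (3.00 ± 0.13, adjusted p = 1.2e-10). Its level in CD73– new Treg, 3.55, 3.56 and 4.02, overlapped that of the CD73+ cells. Il18r1, a chain of the interleukin-18 receptor, was 4.07, 3.80 and 4.27 against 6.64, 6.62 and 6.78 (2.63 ± 0.14), and its CD73– values, 3.81, 3.75 and 4.09, also overlapped the CD73+ ones. Differences of the remaining members were 2.49 for Eea1, an early endosome tether, 2.12 for Tent5a, a noncanonical poly(A) polymerase, 2.10 for Ahnak as above and 2.02 for Osbpl3, a lipid-binding protein.

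Genes of effector or tissue Treg, a list chosen with earlier results of these data known, had the most members called of any list. Of 35 listed genes 33 were tested, 29 were higher in bulk Treg, 2 were lower and 2 were not past the threshold, where 9.61% and 10.8% of all genes were higher and lower. The median difference was 1.82, beside −0.05 over all genes. Some members were barely detected in new Treg. A gene passed the filter on low values with log2 CPM 0 in any 3 libraries, so one high in bulk Treg alone could be tested. Of the groups compared, only bulk Treg reached that level for Il1rl1 here and for Gzmb and Cxcr3 below. Counts and medians of a list include such genes. Il1rl1, the interleukin-33 receptor, was −0.15, −0.24 and −0.56 in CD73+ and 4.31, 4.36 and 4.48 in bulk libraries (4.70 ± 0.49, adjusted p = 2.74e-06). Tigit, an inhibitory receptor, was 0.85, 0.69 and 0.85 against 4.85, 5.06 and 5.04 (4.18 ± 0.58, adjusted p = 6.56e-05). In both genes, as in 39.2% of all genes, the groups did not overlap, and all bulk libraries exceeded all CD73+ libraries by over 3 log2 units. Fgl2, a secreted suppressor molecule, was 1.38, 1.31 and 1.71 against 5.50, 5.83 and 6.08 (4.34 ± 0.24). Icos, a costimulatory receptor, was called from abundant transcripts, at 6.34, 6.39 and 6.39 against 7.93, 8.06 and 8.06 (1.65 ± 0.05, adjusted p = 2.68e-12). The members lower in bulk Treg were Gata3, a transcription factor, by 7.58, 7.64 and 7.59 against 7.41, 7.39 and 7.30 (−0.23), and Tnfrsf9, the costimulatory receptor 4-1BB (−0.30). Both of these calls were lost without the 4 libraries of letter D, with adjusted p of 0.0734 and 0.0586. The members not past the threshold were Nkg7 and Areg, an epidermal growth factor ligand, at −0.15, 0.16 and −0.27 in CD73+ and 0.53, 0.07 and −0.15 in bulk libraries. Klrg1, a receptor of terminally differentiated effectors, and Il10, the suppressive cytokine, had values only in the second table: 2.22 ± 0.06 and 1.90 ± 0.12 deposited log2 CPM in bulk Treg (SD, n = 3).

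Prdm1, which encodes the effector regulator Blimp-1, was 1.68, 1.69 and 1.53 in CD73+ and 4.34, 4.72 and 4.96 in bulk libraries, a difference of 3.04 ± 0.18 (adjusted p = 3.45e-09). The CD73– values, 1.66, 1.42 and 1.64, overlapped those of CD73+ new Treg, and that step was 0.06 (adjusted p = 0.91). S100a4, a calcium-binding protein of motile cells, was 0.69, 0.79 and −0.11 against 4.69, 4.61 and 4.83 (4.25 ± 0.33, adjusted p = 1.22e-07). Prdm1 and S100a4, named after their values were seen, are shown by sequence as effector genes far apart between the groups. The windows are the 250 bases before the RefSeq starts on GRCm38.p6, at chr10:44458749-44458998 on the minus strand for Prdm1 and chr3:90603520-90603769 on the plus strand for S100a4, both read 5′ to 3′ along the gene. GENCODE gives Prdm1 bounds of 44437177 to 44528501, so its window lies inside the annotated gene, upstream of the RefSeq start. Capitals mark a match to TGANTCA, in which N is any base, a loose pattern for the core bound by AP-1 and related leucine zipper factors. The stretch marked in Prdm1 has A at that place, so it matches this loose pattern and is not shown to be an AP-1 site.
Prdm1: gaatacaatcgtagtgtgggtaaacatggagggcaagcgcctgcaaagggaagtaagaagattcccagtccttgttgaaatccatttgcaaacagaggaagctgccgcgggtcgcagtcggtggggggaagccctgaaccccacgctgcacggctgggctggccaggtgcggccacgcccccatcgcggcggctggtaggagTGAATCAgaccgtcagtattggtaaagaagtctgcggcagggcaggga
S100a4: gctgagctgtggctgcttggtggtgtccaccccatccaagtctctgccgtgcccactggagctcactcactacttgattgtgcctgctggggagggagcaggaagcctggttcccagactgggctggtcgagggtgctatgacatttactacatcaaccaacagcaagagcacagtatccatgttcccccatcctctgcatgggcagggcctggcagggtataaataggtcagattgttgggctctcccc
The S100a4 window held no match.

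Further members of the effector list covered its transcription factors, cytotoxic genes and adhesion molecules. Rora, a nuclear receptor factor of tissue lymphocytes, was 6.44, 6.44 and 6.36 in CD73+ and 7.45, 7.40 and 7.48 in bulk libraries (1.03 ± 0.06, adjusted p = 2.06e-09). Batf, an AP-1 family factor of effector Treg, was 3.56, 3.77 and 3.48 against 4.25, 4.78 and 4.60 (0.94 ± 0.15, adjusted p = 0.000239). For both factors, as for 39.2% of all genes, the groups did not overlap. Gzmb, the cytotoxic protease granzyme B, was −0.15, −1.05 and −1.98 against 2.46, 3.11 and 3.20 (3.98 ± 0.65, adjusted p = 0.000287), low in each group and spread over nearly 2 log2 units in the CD73+ libraries. Cd44, a hyaluronan receptor of activated T cells, was 6.79, 6.96 and 6.76 against 7.61, 7.59 and 7.65 (0.78 ± 0.06, adjusted p = 1.24e-07). S100a10 and Vim, an annexin partner and an intermediate filament protein, were abundant in both groups and higher in bulk Treg by 0.66 ± 0.08 and 0.36 ± 0.05, and both were also higher in CD73+ than in CD73– new Treg, by 0.42 and 0.22.

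**Figure D4:**
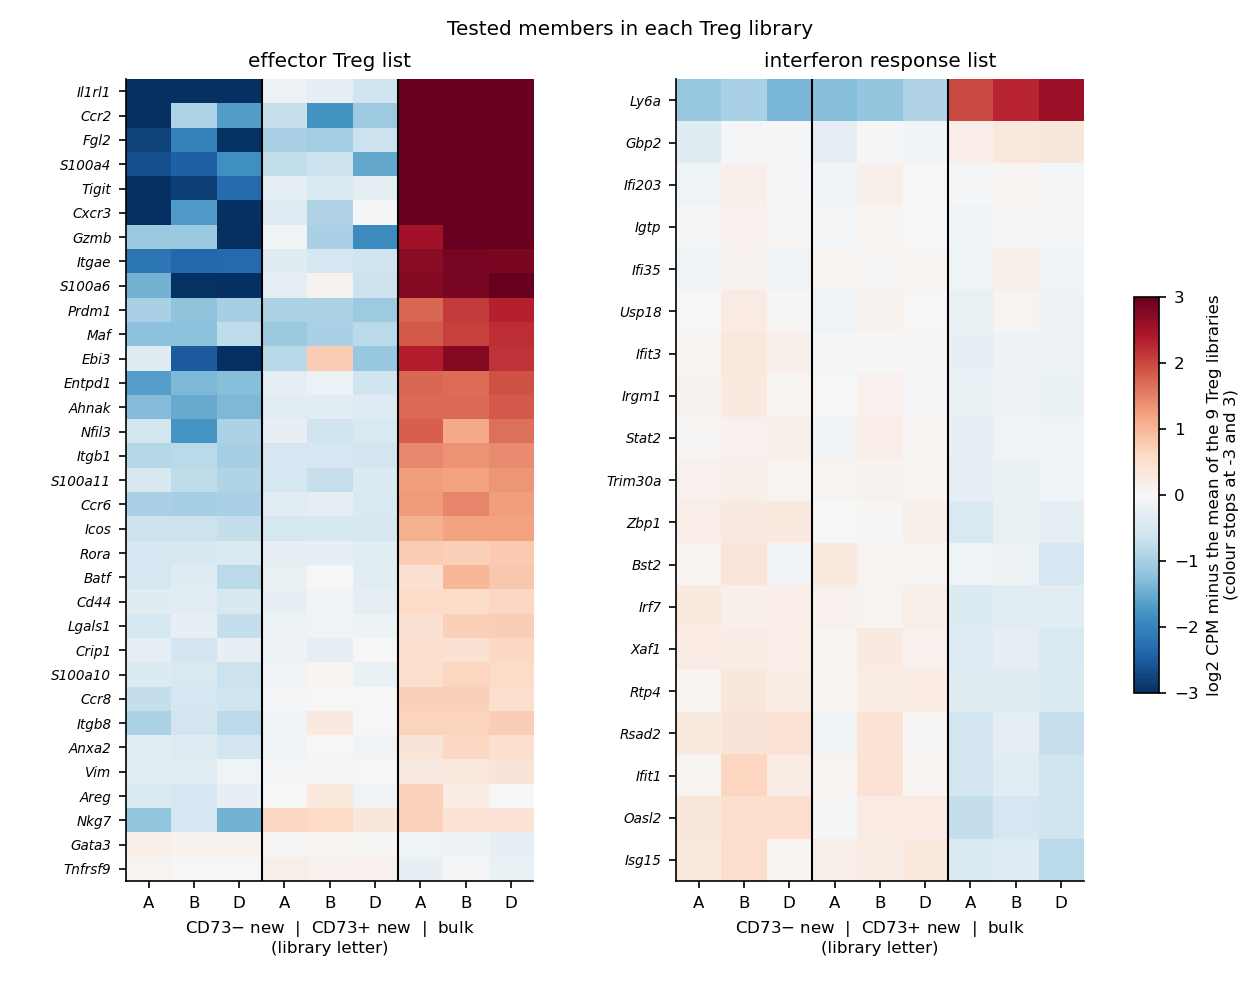
Heat map of normalised log2 CPM for the effector Treg and interferon response lists (rows) in the 9 Treg libraries (columns), each gene centred on its mean over the 9, with the colour bar in log2 units. In the effector list 29 of 33 tested genes are higher in bulk than in CD73+ new Treg, and in the interferon list, of which 1 tested gene is not drawn, 10 of 20 are lower.

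The general Treg signature had a smaller median difference, 0.28. Of 20 genes, all tested, 10 were higher in bulk Treg, 1 was lower and 9 were not past the threshold, and 9 had intervals within 1.5-fold. Over all genes tested, 9.61% were higher, 10.8% lower and 67.1% within 1.5-fold, so the part within 1.5-fold was smaller here. Nrp1, a semaphorin and VEGF coreceptor of thymus-derived Treg, was 7.14, 7.37 and 6.95 in CD73+ and 8.79, 8.77 and 8.70 in bulk libraries (1.60 ± 0.11, adjusted p = 1.4e-08). Capg, an actin-capping protein, was 5.73, 5.73 and 5.52 against 7.06, 7.08 and 6.98 (1.38 ± 0.08, adjusted p = 2.74e-09). For both genes the groups were apart by more than 1 log2 unit. Ctla4, the inhibitory receptor that removes costimulatory ligands, was 8.15, 7.96 and 8.04 against 8.58, 8.43 and 8.55 (0.47 ± 0.12), a call lost when the letter D libraries were left out (adjusted p = 0.103). Ikzf4, which encodes Eos, and Swap70, an actin-binding signalling protein, had the narrowest intervals, −0.01 to 0.24 and −0.18 to 0.07. Gpr83, an orphan receptor, was the member below CD73+ new Treg (−0.38 ± 0.13, adjusted p = 0.0418). That call was lost without CD73+ replicate B (adjusted p = 0.207), bulk replicate A (0.114) or bulk replicate D (0.17).

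Chemokine receptors and integrins direct where T cells go and stay. Of 25 listed genes 24 were tested, and 14 were higher and 4 lower in bulk Treg, with a median of 0.62. The shares over all genes tested were 9.61% and 10.8%. Ccr4, a receptor for skin and thymic chemokines, was 2.73, 2.98 and 2.95 in CD73+ and 5.46, 5.64 and 5.72 in bulk libraries (2.72 ± 0.16, adjusted p = 2.64e-09). Ccr2, an inflammatory receptor named after its values were seen, was 1.52, 0.40 and 1.12 against 5.41, 5.70 and 5.75 (4.60 ± 0.53). Itgb1, the β1 integrin chain, was 6.18, 6.19 and 6.14 against 8.12, 8.04 and 8.11 (1.92 ± 0.08, adjusted p = 4.52e-11). These receptors were higher in every bulk library than in any CD73+ library, where 39.2% of all genes had no overlap in either direction. Cxcr5, the receptor that leads T cells to B cell follicles, was 2.81, 1.87 and 2.57 against 5.17, 4.98 and 5.26 (2.72 ± 0.22, adjusted p = 2.1e-07), and Cxcr3, which responds to interferon-induced chemokines, was −0.38, −0.88 and −0.03 against 3.42, 3.73 and 3.92 (4.12 ± 0.57, adjusted p = 5.58e-05). Ccr6, a receptor for the chemokine CCL20, was 4.62, 4.68 and 4.51 against 6.23, 6.42 and 6.22 (1.68 ± 0.21, adjusted p = 2.32e-05). The leukocyte integrin chain Itgal differed by 0.03 with an interval from −0.08 to 0.14. The members called lower included receptors that guide thymocytes and naive cells. Ccr9, the receptor for the thymic chemokine CCL25, was 5.25, 5.67 and 5.41 against 4.49, 4.76 and 4.52 (−0.86 ± 0.14, adjusted p = 0.000273). S1pr1, the receptor for the egress signal sphingosine-1-phosphate, was 8.65, 8.68 and 8.53 against 8.26, 8.27 and 8.09 (−0.41 ± 0.06, adjusted p = 0.000104). Ccr7, which guides cells to the medulla and lymph nodes, was 8.48, 7.97 and 8.24 against 7.76, 7.64 and 7.54 (−0.59 ± 0.14). Its call was lost in a setting that left libraries out (adjusted p = 0.105, limma).

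Among the 8 lowest differences of called, non-overlapping genes of above-median level, Trpm1, which encodes a cation channel, came first. It was 5.46, 5.58 and 5.45 in CD73+ and 4.13, 4.15 and 4.12 in bulk libraries (−1.36 ± 0.09, adjusted p = 9.62e-09). In CD73– new Treg it was 5.11, 5.12 and 5.05, so its order over the groups was not that of Nt5e or Ahnak: CD73+ exceeded CD73– new Treg by 0.40 (adjusted p = 0.024), and bulk Treg lay below both. Its window, the 250 bases before the RefSeq start at chr7:64153585-64153834 on the plus strand of GRCm38.p6, is shown as that of the first of these 8 genes; genes of lower level had larger deficits. Capitals mark TCAAAG, which reads CTTTGA, the core bound by TCF and LEF factors, on the other strand.
Trpm1: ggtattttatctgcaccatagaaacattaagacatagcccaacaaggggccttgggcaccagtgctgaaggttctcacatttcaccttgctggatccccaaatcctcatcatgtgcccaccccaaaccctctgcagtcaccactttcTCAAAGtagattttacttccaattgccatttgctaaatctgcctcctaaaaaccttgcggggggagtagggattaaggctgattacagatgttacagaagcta
Arhgap20, a GTPase-activating protein, was 8.83, 8.70 and 8.89 against 7.59, 7.58 and 7.52 (−1.24 ± 0.06, adjusted p = 1.03e-09). Sox4, a transcription factor of early and immature T cells, was 7.10, 7.09 and 7.20 against 6.00, 6.07 and 5.95 (−1.12 ± 0.06, adjusted p = 9.82e-10), and its CD73– values, 7.06, 6.99 and 7.17, overlapped the CD73+ ones. The remaining differences were −1.21 for Lactb, a mitochondrial protease-like protein, −1.05 for Cnn3, an actin-binding calponin, −1.03 for Mex3a, an RNA-binding protein, −1.01 for Pla2g4f, a phospholipase, and −0.92 for Tubb2b, a β-tubulin.

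The list of immature thymocyte genes did not move in a single direction. Of 17 genes 16 were tested, 3 were higher and 6 lower in bulk Treg, with a median of −0.21. The shares over all genes tested were 9.61% and 10.8%. The lower members were factors and regulators of developing T cells. Satb1, a chromatin organiser, was 10.60, 10.53 and 10.64 in CD73+ and 9.89, 9.80 and 9.85 in bulk libraries (−0.75 ± 0.04, adjusted p = 1.03e-09). Tox, a factor needed for CD4+ T cell development, was 8.26, 8.29 and 8.37 against 7.76, 7.83 and 7.91 (−0.47 ± 0.05), and Themis, a TCR signalling adaptor, was 7.53, 7.33 and 7.52 against 6.88, 6.89 and 6.89 (−0.57 ± 0.06). In all 3 genes no bulk library reached a CD73+ library, where 39.2% of all genes had no overlap in either direction. Among the 3 higher members, Rag1, a low transcript that encodes part of the receptor gene recombinase, was 2.10, 2.56 and 1.62 against 4.21, 3.42 and 3.72 (1.69 ± 0.39, adjusted p = 0.00528), a call lost without the libraries of letter D (0.0669). Arpp21, a phosphoprotein of early thymocytes (0.77, adjusted p = 0.0399), lost its call when any of the 6 libraries was left out (adjusted p from 0.0687 to 0.136). Cd8a and Cd8b1, the CD8 coreceptor chains, were not past the threshold, with Cd8b1 at 2.97, 3.30 and 2.67 against 2.83, 2.88 and 2.75.

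Of 15 naive T cell genes, 2 were higher and 7 lower in bulk Treg, with a median of −0.21, beside 9.61% and 10.8% of all genes tested, so that the higher count is near the share over all genes. Bach2, a repressor that restrains effector differentiation, was 8.75, 8.80 and 8.73 in CD73+ and 8.27, 8.27 and 8.16 in bulk libraries (−0.52 ± 0.05, adjusted p = 3.84e-07). Lef1, a TCF family factor, was 8.91, 8.88 and 9.02 against 8.58, 8.48 and 8.57 (−0.39 ± 0.05, adjusted p = 2.44e-05), while its relative Tcf7 differed by −0.07 with an interval from −0.17 to 0.03. The 2 members higher in bulk Treg were Il7r and Il6ra. Il7r, the interleukin-7 receptor α chain, was 6.08, 6.45 and 6.12 against 7.72, 7.79 and 7.78 (1.54 ± 0.10, adjusted p = 1.13e-08), and Il6ra, the interleukin-6 receptor, was 6.98, 6.91 and 7.01 against 7.99, 7.90 and 7.98 (0.99 ± 0.06). Of 24 genes of thymocyte maturation and egress, 7 were higher and 7 lower, with a median of −0.03. The intervals of 17 were within 1.5-fold, near the 67.1% of all genes. The class I molecule H2-Q7 (Qa-2), which marks late thymocyte maturation, was 8.70, 8.48 and 8.84 in CD73+ and 9.44, 9.48 and 9.49 in bulk libraries (0.80 ± 0.12, adjusted p = 0.000165). Reads of H2-Q7 may be shared with near-identical class I genes, so its value is uncertain. Itgb7, an integrin β chain that pairs with CD103, was higher (0.46 ± 0.07), Ms4a4b, a membrane protein of mature T cells, was lower (−0.32 ± 0.07), and the egress regulator Klf2 gave −0.27 (adjusted p = 0.261). The count of 7 lower members fell to 4 without CD73+ replicate A, CD73+ replicate B or bulk replicate D.

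Genes induced through the TCR were divided. Of 20 genes, 4 were higher and 8 lower in bulk Treg, with a median of −0.10, beside 9.61% and 10.8% of all genes tested. Nr4a3, a nuclear receptor that follows TCR signalling, was 7.88, 7.95 and 7.98 in CD73+ and 7.34, 7.29 and 7.31 in bulk libraries (−0.62 ± 0.06, adjusted p = 9.97e-07). Bcl2l11, which encodes the death inducer Bim, was 7.18, 7.21 and 7.34 against 6.71, 6.55 and 6.68 (−0.60 ± 0.07, adjusted p = 7.03e-06), and Cd200, an inhibitory ligand, differed by −0.36 ± 0.06. These genes were lower in every bulk library than in any CD73+ library, where 39.2% of all genes had no overlap in either direction. Irf4, a factor needed by effector Treg, was 6.16, 6.30 and 6.12 against 6.49, 6.70 and 6.51 (0.37 ± 0.08, adjusted p = 0.00327). Egr3 (0.34) and Spry1 (0.51), a transcription factor and a feedback inhibitor, were also higher, but not without the libraries of letter D. Without those libraries the list had 1 member higher and 5 lower.

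Signalling lists gave small median differences. Beside their counts, 9.61% of all genes tested were higher and 10.8% lower, and the count of lower NF-κB genes is near that share. Of 17 interleukin-2 and STAT5 genes, 6 were higher and 4 lower, with a median of 0.17. Socs3, an inhibitor of cytokine signalling, was 4.14, 4.34 and 4.23 in CD73+ and 5.78, 5.77 and 5.78 in bulk libraries (1.54 ± 0.11, adjusted p = 2.61e-08), whereas Stat5a was 8.10, 8.05 and 8.02 against 7.59, 7.73 and 7.49 (−0.45 ± 0.07, adjusted p = 0.00015). The higher count fell to 3 without CD73+ replicate A or bulk replicate B. Of 16 NF-κB genes, 4 were higher and 2 lower with a median of 0.12; Traf1, a TNF receptor adaptor, differed by 0.57 ± 0.07 and Rel, an NF-κB subunit, by −0.26 ± 0.05. The lower count was 1 without CD73+ replicate B or bulk replicate D. Of 12 TNF receptor and costimulation genes, 3 were higher and 4 lower with a median of 0.10. Tnfrsf1b, TNF receptor 2, was 7.94, 7.89 and 7.90 against 8.42, 8.48 and 8.38 (0.52 ± 0.07, adjusted p = 2.34e-05), and the costimulatory receptor Cd28 was 8.77, 8.59 and 8.79 against 8.39, 8.24 and 8.44 (−0.36 ± 0.06, adjusted p = 0.000341).

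Of 21 interferon response genes 20 were tested, and 10 were lower and 2 higher in bulk Treg, with a median of −0.25. Among all genes tested 10.8% were lower and 9.61% higher, so the higher count is near the share over all genes. Irf7, a transcription factor of the response, was 6.64, 6.60 and 6.69 in CD73+ and 6.09, 6.18 and 6.19 in bulk libraries (−0.49 ± 0.06, adjusted p = 8.52e-06). Oasl2, an antiviral protein, was 4.50, 4.78 and 4.79 against 3.81, 4.04 and 3.93 (−0.77 ± 0.10, adjusted p = 5.2e-05). Xaf1, a proapoptotic interferon target, was 5.84, 6.03 and 5.89 against 5.38, 5.49 and 5.31 (−0.53 ± 0.07). In these genes, as in 39.2% of all genes, the groups did not overlap. In CD73– new Treg Irf7 was 6.80, 6.66 and 6.70, which overlapped the CD73+ values. The higher members were Ly6a and Gbp2. Ly6a, which encodes Sca-1 and also marks activated T cells, was 1.88 to 2.27 against 5.16, 5.45 and 5.74 (3.40 ± 0.16, adjusted p = 2.36e-10). Gbp2, a guanylate-binding protein (0.42), lost its call without CD73+ replicate A (adjusted p = 0.0692) or bulk replicate D (0.0557).

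The purinergic genes, to which CD73 belongs, gave 6 higher and 1 lower of 15, with a median of 0.19. Among all genes tested 9.61% were higher and 10.8% lower. Entpd1, the CD39 enzyme upstream of CD73, was 3.33, 3.41 and 2.99 in CD73+ and 5.30, 5.26 and 5.50 in bulk libraries (2.11 ± 0.25, adjusted p = 1.01e-05), and was 1.93, 2.25 and 2.31 in CD73– new Treg. P2rx7, an ATP-gated channel, was 5.84, 6.12 and 5.92 against 6.67, 6.66 and 6.69 (0.71 ± 0.09, adjusted p = 1.51e-05). Adora2a, an adenosine receptor, was 3.73, 3.70 and 3.72 against 4.73, 4.63 and 4.81 (1.01 ± 0.17, adjusted p = 0.000445). Enzyme, channel and receptor were each higher in all bulk libraries, where 39.2% of all genes had no overlap in either direction. Pde4d, which breaks down cyclic AMP, was lower, at 7.39, 7.34 and 7.37 against 7.04, 6.98 and 6.89 (−0.40 ± 0.05, adjusted p = 4.37e-05), and without CD73+ replicate B another member was called lower, for a count of 2. Adk, the kinase that clears adenosine, was named after its values were seen. It had a mean of 5.09 ± 0.09 in CD73+ and 5.04 ± 0.03 in bulk libraries (SD, n = 3), with an interval from −0.22 to 0.11, and 4.69, 4.62 and 4.56 in CD73– new Treg (CD73+ minus CD73– 0.46, adjusted p = 0.0041).

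The metabolic, cell cycle and apoptosis lists had medians between −0.04 and 0.17. Beside the counts below, 9.61% of all genes tested were higher, 10.8% lower and 67.1% within 1.5-fold. Of 15 glycolysis genes, 6 were higher and 9 were not past the threshold, and 13 had intervals within 1.5-fold. Aldoa, an aldolase, was 6.30, 6.43 and 6.40 in CD73+ and 6.93, 6.97 and 6.85 in bulk libraries (0.54 ± 0.05, adjusted p = 1.91e-06), and Gapdh was 8.48, 8.53 and 8.41 against 8.76, 8.85 and 8.68 (0.29 ± 0.05). Of 15 sterol synthesis genes, 1 was lower, 14 were not past the threshold, and 13 were within 1.5-fold. The lower member was Srebf2, the regulator of the pathway (−0.20, adjusted p = 0.0219), whose call was lost without CD73+ replicate A (0.087) or D (0.055) or bulk replicate A (0.0693) or D (0.107). Of 21 cell cycle genes, 2 were higher and 1 lower, where 9.61% and 10.8% of all genes were, so the higher count is at the share over all genes. Tk1, a thymidine kinase, was 2.58, 2.83 and 2.57 against 3.57, 3.78 and 3.88 (1.08 ± 0.15, adjusted p = 5.73e-05), while Mki67, the proliferation marker, was 6.04, 6.52 and 5.77 against 6.66, 6.62 and 6.78 (adjusted p = 0.0788, 0.0264 without CD73+ replicate B and 0.0102 with only the 2 groups fitted). The higher count was 1 without CD73+ replicate A, CD73+ replicate D or any bulk library. Of 16 apoptosis genes, 3 were higher and 5 lower. Bcl2, a survival factor, was 9.04, 9.12 and 9.09 against 8.77, 8.71 and 8.66 (−0.37 ± 0.05, adjusted p = 0.000106), and Pmaip1, which encodes the death inducer Noxa, was 3.24, 3.22 and 3.16 against 4.52, 3.94 and 4.45 (1.09 ± 0.22, adjusted p = 0.00192). The lower count was 3 without CD73+ replicate A or B or bulk replicate A or D, and the 3 higher calls were lost without the libraries of letter D.

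Immediate early and heat shock genes respond to tissue handling as well as to stimulation. Of 18 genes 16 were tested, and 1 was higher, Btg2 (0.30 ± 0.06, adjusted p = 0.000923), with a median of 0.36 over the list. Among all genes tested 9.61% were higher. With the letter as a replicate block, 13 of the list were higher, so the count of 1 depends on leaving the letter out of the fit. Fos was 7.70, 6.80 and 8.46 in CD73+ and 8.07, 7.80 and 8.94 in bulk libraries, and Hspa1a, a heat shock protein, was 3.13, 2.21 and 5.32 against 4.89, 4.18 and 6.74. In both groups replicate D was highest and replicate B lowest for both genes. Without the libraries of letter D, 7 members were higher, and without CD73+ replicate D alone 4 were; without bulk replicate B the count was 2.

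**Figure D5:**
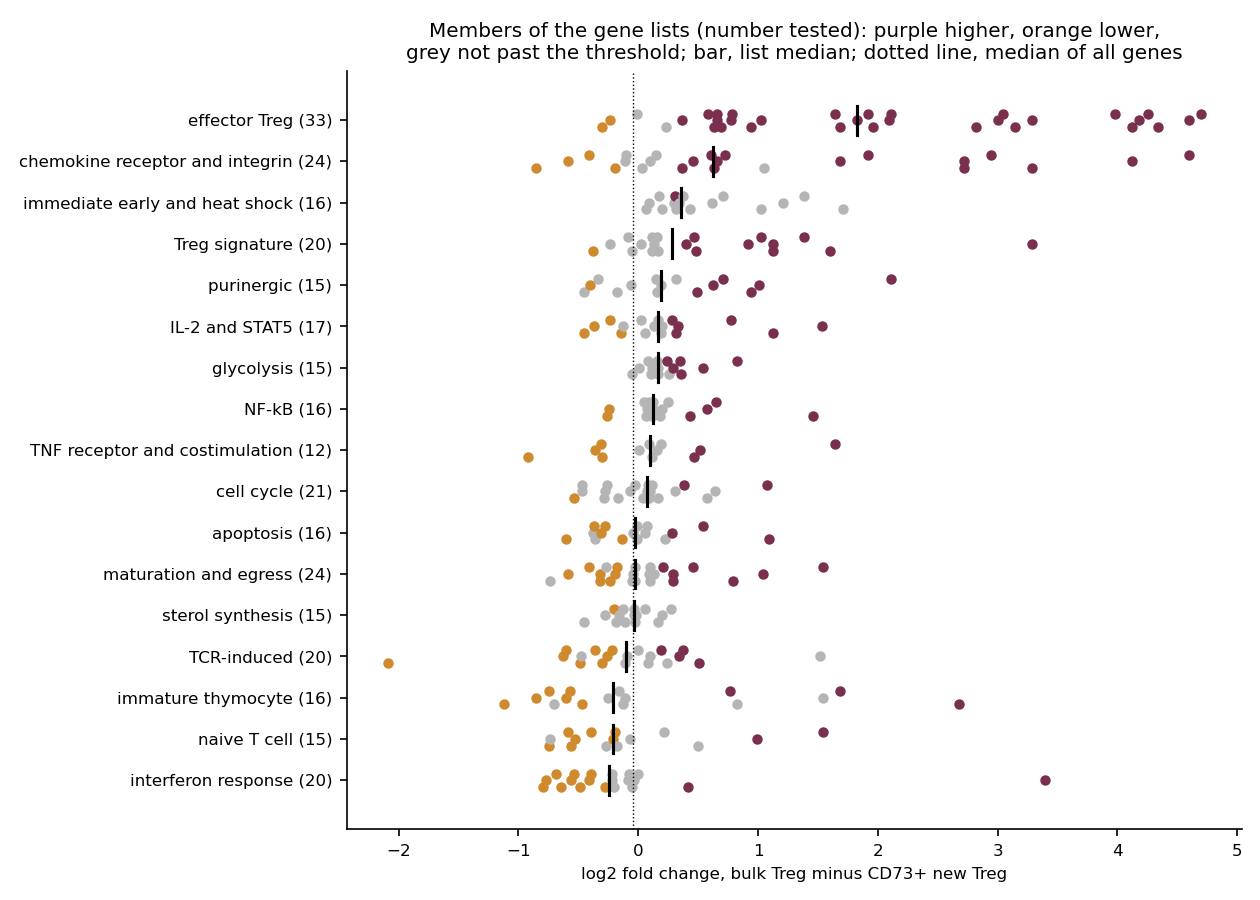
Log2 fold change, bulk Treg minus CD73+ new Treg (horizontal axis), of every tested member of 17 gene lists (rows, sorted by median), with a mark at the median. The effector Treg list has the highest median, 1.82, and the interferon response list the lowest, −0.25.

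Transcripts of other cell types were measured beside these groups, as summed deposited CPM over each list. These sums come from separately scaled tables. Joint normalisation shifted bulk libraries by −0.15 to −0.14 on average and CD73+ libraries by −0.03 to 0.03. Dendritic cell genes had 6 members with values in CD73+ and 7 in bulk libraries, red cell and granulocyte genes 6 and 8. Among all genes tested 9.61% were higher and 10.8% lower. The lists are small, so a single call describes a gene and not its list. B cell genes (9 listed) summed to 4.12 to 5.81 in CD73+ and 8.89 to 11.7 in bulk libraries, with Igkc and Ighm without a value. Of 4 tested, Cd79b, a B cell receptor chain, was higher (1.63 ± 0.46, adjusted p = 0.0179), a call lost without CD73+ replicate A (0.061) or bulk replicate B (0.0599) or D (0.0708). Macrophage and monocyte genes (11 listed, 7 tested) summed to 121 to 131 against 173 to 190, most of it from Ctss, a lysosomal protease that T cells also express, at 6.85, 6.82 and 6.78 against 7.40, 7.32 and 7.34 (0.54 ± 0.07, adjusted p = 2.34e-05). The defining markers Lyz2, Csf1r and C1qa were not past the threshold. Dendritic cell genes (9 listed, 4 tested) summed to 24.9 to 30.5 against 40.9 to 50.2, with Cd74, the invariant chain, higher (0.73 ± 0.15, adjusted p = 0.00192). Zbtb46, a dendritic cell transcription factor, was at 1.52, 1.19 and 1.16 against 2.18, 2.18 and 2.57 (1.02, adjusted p = 0.0431), lost when any of the 6 libraries was left out (from 0.0655 to 0.164). Of 5 CD8 lineage genes Runx3, a transcription factor of cytotoxic and tissue-resident T cells, was higher (1.46 ± 0.13, adjusted p = 5.12e-07), and the sum was 25.8 to 31.6 against 46.4 to 48.6. The other 4 were not past the threshold, and the median difference of the list was −0.16, with a lowest value of −0.70. Natural killer, NKT and γδ T cell genes (9 listed, 4 tested) summed to 3.27 to 4.61 against 2.43 to 3.48, and Zbtb16, which encodes the NKT cell factor PLZF, was 0.69, 1.22 and 1.29 in CD73+ and −1.59, −1.02 and −0.39 in bulk libraries (−2.06 ± 0.60, adjusted p = 0.0214). That call was lost without CD73+ replicate B (0.0569) or D (0.077) or bulk replicate A (0.0946) or B (0.0619), and on the deposited values (0.106). Of the groups compared, only CD73+ new Treg reached the filter's log2 CPM of 0 for Zbtb16. Thymic epithelial genes (7 listed, 2 tested) summed to 28.8 to 39.0 against 31.5 to 33.6, and red cell and granulocyte genes (9 listed, 5 tested) to 91.0 to 113 against 92.2 to 144, the tested members of the latter differing by −0.07 to 0.31, not past the threshold. Epcam, an epithelial adhesion molecule, was higher by 0.71 (adjusted p = 0.0485), lost without CD73+ replicate A (0.199) or B (0.0924) or bulk replicate A (0.181) or B (0.139). The part of cells of these types in the differences above was not tested.

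The same fit gives the neighbouring comparisons, which share libraries with the main one, so their values are set side by side only. Bulk Treg minus CD73– new Treg had 3698 genes past the threshold (33.2%), of which 773 (6.94%) were over 2-fold, against 2278 (20.5%) and 514 (4.61%) for bulk minus CD73+ new Treg. CD73+ minus CD73– new Treg, within 1 deposited table, had 249 (2.24%), 193 higher (1.73%) and 56 lower (0.503%). That count was 79 without CD73+ replicate B and 97 without CD73+ replicate A, and 118 and 134 without CD73– replicates D and A. In the effector Treg list CD73+ exceeded CD73– new Treg for 15 of 33 tested genes, with the other 18 not past the threshold, and in the Treg signature for 4 of 20. In the interferon list all 20 intervals between CD73+ and CD73– new Treg lay within 1.5-fold, as did 75.1% of those of all genes.

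The motifs marked in the Prdm1 and Trpm1 windows were counted in the windows of every gene, on both strands. TGANTCA was in 8.06% of windows of genes over 2-fold higher in bulk Treg, 3.85% of those over 2-fold lower and 4.05% of those of all genes tested. It was in 6.04% of windows of all genes called higher and in 6.75% of all windows of the RefSeq table. CTTTGA was in 9.17%, 10.3% and 10.4% of the first 3 sets, in 9.41% for all genes called higher and in 13.8% of all windows. A gene may have several windows, and a match is a run of letters and not a bound site. RefSeq windows were found for 8819 of 11130 tested symbols.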

How the data were processed

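RNA was measured in 12 libraries from sorted mouse thymocytes, made with the KAPA RNA HyperPrep kit from TRIzol extracts, per the labels' protocols. The authors deposited log2 CPM values with 2 decimals, in 2 tables of 6 libraries merged by gene. STAR, RSEM, limma and the build mm10 are named in the submitters' processing notes, and the sources used here do not give their versions. The unit was read from the values: within 5 log2 units of a library's lowest value, 94.3% to 95.8% of values were whole counts (within 0.08) plus 0.5, so that a table differs from the counts by 1 factor per library. Each table as deposited also holds the authors' fold changes, p-values and test statistic (a score) for its own comparison, which were not used.

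Genes with values in all 12 columns were quantile-normalised together, and those reaching log2 CPM 0 in 3 or more libraries were kept. In R 4.3.3, limma 3.58.1 fitted all 12 libraries with 4 group means, an intensity trend and no block. Tests were two-sided with Benjamini-Hochberg adjustment over all genes tested, and an adjusted p under 0.05 is past the threshold. Errors are standard errors of the fit or SD over 3 libraries, and intervals are 95%. The fit was tested on simulated data. A gene is within 1.5-fold when its whole interval is. No library pair of a group agreed within sampling noise (chi-square per degree of freedom of at least 2.96).

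The members and gene lists were chosen with earlier results of these data known. The text names the sorting and marker genes, the 8 highest and 8 lowest differences among called, non-overlapping genes of above-median level, in each list the 3 members with the smallest p per direction, and up to 2 with the narrowest intervals. Some genes that this rule takes are not reported here. Named outside this rule, after their values were seen, were Il2ra, Ikzf2, Il1rl1, Tigit, Fgl2, Areg, Klrg1, Il10, Prdm1, S100a4, Rora, Batf, Gzmb, Cd44, S100a10, Ccr2, Cxcr5, Cxcr3, Ccr6, Itgal, H2-Q7, Themis, Cd8a, Klf2, Adora2a, Adk, Mki67, Fos, Hspa1a, Lyz2, Csf1r, C1qa, Igkc and Ighm. Of 13207 gene IDs, 13195 matched GENCODE on GRCm38. Promoter windows are RefSeq's, on GRCm38.p6. Alternatives were other scalings, filters and offsets, no trend, fewer groups, a replicate block, precision weights, and leaving out each library. Across genes, the difference correlated with exonic length at a Spearman coefficient of 0.07.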

Additional observations from a re-analysis of the deposited data

How the results depend on the processing

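Of the settings tried, none reversed the direction of a called gene named in the text. The balance of the calls did turn: 1070 were higher and 1208 lower, against 1147 and 983 with a trimmed mean shift and 1264 and 834 on deposited values. The comparison of bulk Treg with CD73+ new Treg had 1658 to 1962 genes past the threshold when any of its 6 libraries was left out, beside 2278 with all. A setting without the 4 libraries of letter D, chosen after seeing the data, gave 1172 genes (628 higher and 544 lower, also more higher than lower), 235 over 2-fold higher, 2164 for bulk minus CD73– new Treg and 41 for CD73+ minus CD73– new Treg. The 151 genes over 2-fold lower became 68 with a median shift, 58 with a trimmed mean shift, 53 on deposited values and 47 with an offset of 1 CPM. CD73+ minus CD73– new Treg gave 133 genes with only those groups fitted, 77 without an intensity trend and 79 to 280 without single libraries, beside 249. The median distance between bulk and CD73+ libraries was 0.647 with a median shift, beside 0.668. The causes of these changes were not tested.

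Over all genes, deviations of libraries of the same letter correlated at 0.0149, 0.0849 and −0.0184 between bulk and CD73+ new Treg, so the letters were not taken to pair them. Between CD73+ and CD73– new Treg the values were 0.102, 0.0993 and 0.0731. Single genes can still follow the letter: Fos and Hspa1a ranked alike by letter in bulk and CD73+ new Treg. With the letter as a replicate block, 2693 genes passed, and CD73+ minus CD73– new Treg gave 571. Under the block 13 immediate early and heat shock genes were higher, beside 1. Depth limits genes near 3 counts, and 547 genes with values only in the bulk Treg table, which can include those lowest in new Treg, were not tested, nor were 250 with values only in the new Treg table, which can include those lowest in bulk Treg.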

Other observations

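Gene families outside the lists above were counted in the same fit, and were chosen after earlier results of these data were known. Of 79 cytosolic ribosomal protein genes, 4 were higher and 2 lower in bulk than in CD73+ new Treg by limma, 77 had 95% intervals within 1.5-fold, and the median difference was 0.01. Over all genes tested, 9.61% were higher, 10.8% lower and 67.1% within 1.5-fold. Between CD73+ and CD73– new Treg 25 of the same 79 genes were higher, beside 1.73% of all genes. Of 78 mitochondrial ribosomal protein genes, 6 were lower in bulk than in CD73+ new Treg and 72 were not past the threshold, with 63 intervals within 1.5-fold and a median of −0.17. Of 63 histone cluster genes, 1 was lower in bulk Treg and 62 were not past the threshold.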
